A study of Mus musculus with 16 samples.

Results

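Mature dendritic cells (DCs) were described in libraries that had been sorted for γδ T cells from the liver-draining lymph nodes (LN) of mice. A cell was taken as a member when it held at least 2 unique molecular identifiers (UMIs) of Ccr7, at least 2 of Fscn1 and none of Cd79a. Ccr7 encodes the receptor that guides DCs into lymph nodes, Fscn1 the actin bundler of their dendrites and Cd79a a chain of the B cell receptor. The gate returned 349 cells out of 14497 LN cells with an assigned hashtag and out of 53595 filtered cells in the whole series. Ccr7, Fscn1 and Cd79a chose the members, so the members were chosen by these 3 values, which are given only as a description.

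DCs that take up antigen in a tissue mature, lose phagocytic functions, turn on Ccr7 and travel through the lymph to the draining node. There they present antigen on MHC class II, express costimulatory molecules such as Cd40 and Cd86, and secrete chemokines and cytokines that attract and instruct T cells. Ccl17 and Ccl22 bind Ccr4 on T cells, Ccl5 is a further T cell attractant, and Il12b encodes the shared chain of the cytokines Il12 and Il23.

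The study fed male mice on a C57BL/6J background a chow with 0.1% of the bile duct toxin DDC and collected hepatoduodenal and celiac LN without DDC (D0), at D5, at D19 (D18/19 in the description of the pool) and after 18 days of DDC with 7 days of recovery (STOP). In the D5-DT arm, mice that carry the diphtheria toxin (DT) receptor under the Mgl2 locus received DT on days -1 and 2 of a 5-day diet, which targets Mgl2+ DCs. The γδ T cell sort took live CD45+ CD3e+ TCRβ- TCRγδ+ cells, tagged each arm with a hashtag antibody and loaded D0 with D5, D19 with STOP, and LN D5-DT with liver D5-DT. The CITE-seq libraries (RNA with surface antibody tags) of LN at D0, D5 and D19 instead mixed CD45+ CD11c-, CD45+ CD11c+, Pdpn+ and CD45- Pdpn- fractions, there was no such library for STOP, and the D5 library carries D6 in its description. Mice were aged 6 to 12 weeks. How many were pooled into each arm was not given in the sources used here.

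Each arm was thus 1 library part with no replicate. No test between arms was possible and no p-value is given. All intervals are 95% intervals that cover counting error only. They are exact, except those of differences of shares, which combine the exact limits of both shares. D5-DT and D5 lay on different lanes, as did the pools and the CITE-seq libraries, so lane and condition cannot be told apart in those comparisons.

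The arm of every member was read within its lane from the 15-base hashtag barcodes below. They are shown because barcode and lane together tie a DC to a condition. They are printed in lower case, with no part set apart. D5 and D5-DT carried the same barcode on different lanes, and the 4 barcodes differed from each other at 8 to 12 bases.
LN D0: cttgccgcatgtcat
LN D5: aaagcattcttcacg
LN D19: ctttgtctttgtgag
LN STOP: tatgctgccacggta
LN D5-DT: aaagcattcttcacg

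The 3 pools held 71447265 RNA UMIs (D0 with D5), 13074668 (D19 with STOP) and 34142354 (D5-DT), and the 3 CITE-seq libraries 32013882 to 47653941. No member barcode occurred in 2 pools, and any 2 libraries shared at most 29 filtered barcodes. Members held more RNA than the remaining cells of their arm, with median UMIs of 8940 against 4257 at D5, 6384 against 4088 at D19, 9774 against 4784 in STOP and 11159 against 4796 in D5-DT. Just inside the gate, 25 members had exactly 2 UMIs of Ccr7 or of Fscn1. Just outside, 36 cells had 1 UMI of Fscn1, 21 had 1 of Ccr7 and 7 were excluded for Cd79a alone. The median member held 18 Ccr7 and 14 Fscn1 UMIs at D5, 10 and 8 at D19, 25 and 24 in STOP, and 20.5 and 16.5 in D5-DT.

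The label held for most members. Levels are given as CPM, the UMIs of a gene per 1000000 UMIs of the cells summed. The 10 genes highest in members against Fscn1-free, Cd79a-free cells of the same arms, by the mean over arms of the log2 ratio with 10 CPM added, were Fscn1, Apol7c, Il4i1, Tbc1d4, Zmynd15, Ccl22, Cxcl16, Tspan3, Anxa3 and Cacnb3. Fscn1 leads by construction, since the gate used it and the cells compared had none. Of the others, Il4i1, an amino acid oxidase of mature DCs, ranged from 159 CPM in the D0 members to 968 CPM in the STOP members. The other cells held at most 8.52 CPM. Without the members rich in T cell transcripts, which are described below, Il4i1 was at 802 CPM at D0, 1051 at D5 and 665 at D19. It was then at 1050 CPM in STOP and 1231 in D5-DT. Most pan-DC genes were present as well. Flt3, the DC growth factor receptor, was seen at 109 CPM at D5, 246 at D19, 212 in STOP and 117 in D5-DT. Cst3 was at 6976 to 9949 CPM in those 4 arms. At D0, Flt3 and Cst3 were at 12.2 and 732 CPM over all 4 members, of whose UMIs 1 cycling cell described below held 80.2%. The 8 pan-DC genes summed to 7781 CPM in these members and to 18630.5 CPM without that cell. Itgax, which encodes CD11c, separated members less, at 0 against 1.76 CPM in the other cells at D0 and 4.20 against 0.996 at D5. It was at 34.3 against 9.23 CPM at D19, 27.1 against 20.9 in STOP and 15.7 against 9.33 in D5-DT.

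The data went against the label in 9 members. These held 59 to 293 UMIs of 6 cell cycle genes, 40 to 161 UMIs of 7 T cell receptor complex genes (Cd3d, Cd3e, Cd3g, Trdc, Trac, Trbc1 and Trbc2, here "T UMIs") and only 3 to 11 UMIs of the 14 mature DC genes left after Ccr7 and Fscn1. None of the 9 had a UMI of Il4i1 or of Ccl22. They are therefore called cycling cells that passed the gate: 1 at D0, 6 at D5, 1 at D19, none in STOP and 1 in D5-DT. They were large, with 29838 to 90174 UMIs, and supplied 80.2% of all member UMIs at D0, 27.3% at D5, 14.6% at D19 and 20.2% in D5-DT. MHC class II presentation genes were present in them, at 5655 CPM at D0, 4204 at D5, 4164 at D19 and 7541 in D5-DT. The other cells of these arms held 351, 364, 1809 and 1846 CPM of these genes. Another 38 members held 12 to 64 T UMIs, most of them together with mature DC genes. The exception was a D5 member of 4386 UMIs with 15 T UMIs, 2 UMIs each of Ccr7 and Fscn1, 4 mature DC UMIs and no Ccl22, so its data went against the label as well. The other 302 members held 0 to 6 T UMIs. They are called T-poor members below (3 at D0, 88 at D5, 38 at D19, 143 in STOP and 30 in D5-DT), and values are given with and without the other 47 where they differ.

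The members' share was lowest at D0 and highest in STOP. At D0, 4 of 1540 LN cells were members (0.260%, interval 0.0708% to 0.664%). At D5, 105 of 10314 were (1.02%, 0.833% to 1.23%), which was 0.758 percentage points above D0 on the same lane (interval of the difference 0.314 to 1.04). At D19, 40 of 788 cells were members (5.08%, 3.65% to 6.85%). In STOP, 168 of 780 were (21.5%, 18.7% to 24.6%), or 16.5 percentage points above D19 on the same lane (13.1 to 19.8). In the D5-DT arm, 32 of 1075 cells were members (2.98%, 2.04% to 4.18%), 1.96 points above D5 on another lane (1.0 to 3.17). Neighbouring arms in the order D0, D5, D5-DT, D19, STOP had separate intervals except D5-DT and D19, which overlapped between 3.65% and 4.18%.

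The T cell content of the rest of the arms also differed. It was close at D0 and D5 and lower in D5-DT and then D19, as the members' share rose, but STOP departed from this order. Among the Fscn1-free, Cd79a-free cells, 97.3% at D0, 97.1% at D5, 75.7% in D5-DT, 45% at D19 and 86.3% in STOP held at least 10 T UMIs. The share of members was thus a share of sorted cells, with a purity that differed between arms, and the part of the sort in the difference was not tested. Leaving out the 47 members rich in T UMIs, the differences were 0.660 points for D5 against D0, 14.1 for STOP against D19 and 1.94 for D5-DT against D5. In the CITE-seq libraries the same gate returned 294 of 6542 cells at D0 (4.49%, 4.01% to 5.02%), 442 of 6248 at D5 (7.07%, 6.45% to 7.74%) and 798 of 6753 at D19 (11.8%, 11.1% to 12.6%). Of 17568 liver γδ T cells with a hashtag, 1 passed the gate.

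**Figure D1:**
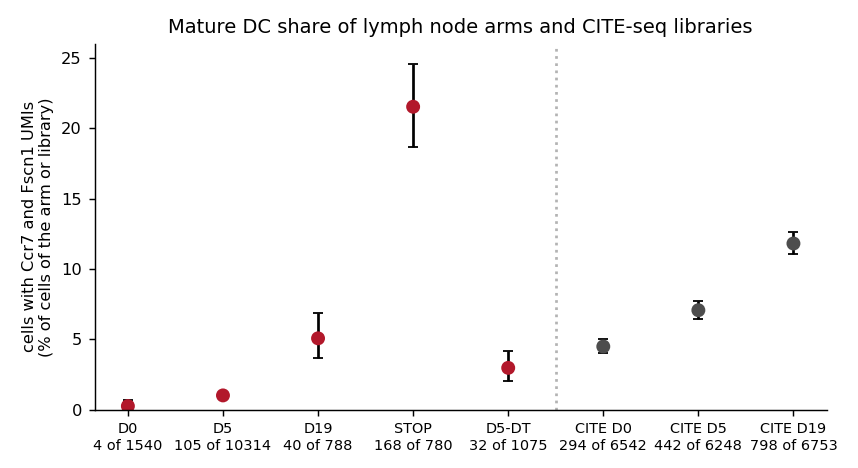
Share of cells that passed the Ccr7, Fscn1 and Cd79a gate, in percent of the cells of each arm of the sorted pools (red, left of the dotted line) and of each CITE-seq library (grey), with exact 95% intervals as bars; numbers under each name are members of all cells. STOP stands highest at 21.5% and D0 of the pools lowest at 0.260%.

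Although the sort required CD3e and TCRγδ protein, T cell transcripts were sparse in most members. Cd3e, a chain of the CD3 complex, was detected in 71 of 349 members (20.3%, 16.2% to 25.0%), and in 14 (4.01%, 2.21% to 6.64%) after every cell was thinned to 1000 UMIs. Trdc, the constant region of the δ chain, was detected in 92 members (26.4%, 21.8% to 31.3%), and in 26 (7.45%, 4.92% to 10.7%) after thinning. The thinned shares were 41.6% for Cd3e and 64.4% for Trdc in the other cells of the arms. In B cells of the same arms, which should lack both genes, they were 9.88% and 16.6%, above the pooled shares of the members. The members' shares are not read as expression. Members and B cells both mixed cells rich and poor in T UMIs, so pooled shares cannot decide whether members express these genes. The T transcripts were unevenly spread over these B cells. At D5, 23.5% of them held at least 10 T UMIs and carried 92.9% of their T transcripts, and the rest stood at 207 CPM of T transcripts. Median depths of these B cells were 2766 to 3870 UMIs per arm, against 6384 to 11159 UMIs for the members. For comparison, Il4i1 was seen in 56.4%, Cacnb3 in 30.9% and Ccl22 in 24.6% of thinned members, and in at most 0.233% of the other cells. In thinned B cells these shares were 6.55%, 0.222% and 0 of 901 cells (exact upper limit 0.409%).

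Per arm, the thinned share of members with Cd3e was 2.86% at D5, 2.50% at D19, 2.98% in STOP and 15.6% in D5-DT. The D5-DT value lay beside 15.9% in the B cells of that arm. Thinned Trdc shares were 7.62% at D5, 0% at D19 (0 of 40 members, exact upper limit 8.81%), 7.74% in STOP and 12.5% in D5-DT. Summed over the 7 genes, T transcripts made up 839 CPM of the members at D5, 268 CPM at D19, 439 CPM in STOP and 490 CPM in D5-DT. The same sums in T-poor members were 121, 11.7, 17.8 and 210 CPM. In barcodes of 100 or fewer UMIs, which hold free RNA, they were 5972 CPM for the D5 lane, 2080 CPM for the D19 and STOP lane and 5879 CPM for the D5-DT lane.

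The T transcripts were concentrated in few members. Of 349 members, 192 held no T UMI, 99 held 1 to 3, 11 held 4 to 9 and 47 held 10 or more (13.5%, 10.1% to 17.5%). These 47 carried 91.5% of the 2246 T UMIs. Apart from the 9 cycling cells, the 38 members rich in T UMIs lay 11 at D5, 1 at D19, 25 in STOP and 1 in D5-DT. They also carried mature DC transcripts, at 10912 CPM in STOP and 6113 CPM at D5, against 16625 and 12063 CPM in T-poor members and 216 to 479 CPM in the other cells of the arms. Their median depth was 18125 UMIs in STOP, against 9355 UMIs in T-poor members. Of the 38, 10 (26.3%) had a top hashtag under 10 times the next one, against 1 of 302 T-poor members (0.331%), and 7 (18.4%) were among the cells with the highest Scrublet doublet scores, against 3 T-poor members (0.993%). In STOP, 20 of the 25 held at least 2 UMIs of Trdc and fewer than 2 of Trac, and none held the reverse.

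In the CITE-seq libraries, which were not sorted for γδ T cells, gated cells rich in T UMIs mostly held at least 2 UMIs of Trac and fewer than 2 of Trdc: 49 of 66 at D0, 35 of 43 at D5 and 66 of 100 at D19. Their CD3 antibody tag had medians of 118.5, 171 and 47 UMIs. Gated cells with few T UMIs had 10, 14 and 3 UMIs of that tag, B cells 4, 3 and 1, and the T-rich cells outside the gate 117, 129 and 47. The pools themselves carried only hashtags, so CD3 protein on their members was not analysed here.

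**Figure D2:**
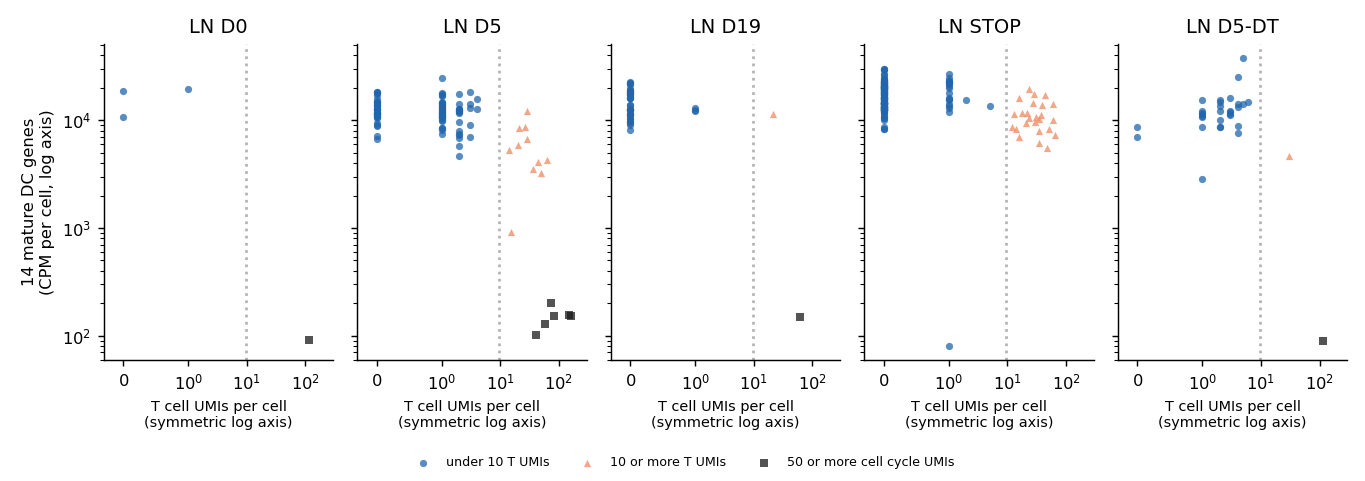
Each point is 1 member: the horizontal axis gives its UMIs over 7 T cell receptor complex genes (symmetric log axis) and the vertical axis its mature DC transcripts over 14 genes (CPM per cell, log axis), by arm. T-poor members (blue circles) lie left of the dotted line with high mature DC levels apart from 1 STOP cell rich in collagen transcripts, members with 10 or more T UMIs (orange triangles) overlap them in height apart from 1 D5 cell at 912 CPM, and the 9 cycling cells (black squares) lie at the bottom right.

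The chemokine and cytokine genes differed between the arms. Il12b made up 211 CPM of the members at D5 (251 UMIs in 52 of 105 cells), 40.6 CPM at D19 (13 UMIs in 6 of 40), 514 CPM in STOP (967 UMIs in 77 of 168) and 409 CPM in D5-DT (182 UMIs in 19 of 32). Of these 4 arms it was lowest at D19, where 1 cell held 61.5% of those 13 UMIs. Ccl17 ran the other way between D19 and D5: it made up 38.6 CPM at D5 (14 cells), 431 CPM at D19 (28 of 40 cells), 190 CPM in STOP (44 cells) and 665 CPM in D5-DT (10 cells). Ccl22 was at 122 CPM at D5, 324 CPM at D19, 555 CPM in STOP and 1156 CPM in D5-DT. In T-poor members of these arms it was at 179, 377, 615 and 1482 CPM. Ccl5 was the most abundant of the listed chemokines in each of these arms, at 7331 CPM at D5, 3002 at D19, 6085 in STOP and 6504 in D5-DT, beside 4787 CPM in the free RNA of the D5 lane, 2316 in that of D19 and STOP and 10082 in that of D5-DT. The 4 D0 members had no UMI of Il12b or Ccl17, and 134 CPM of Ccl22, or 679 CPM without the cycling cell.

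Cell by cell, the UMI counts of T-poor members spread widely. Il12b ranged from 0 to 25 UMIs with a median of 1 at D5, from 0 to 8 with a median of 0 at D19, from 0 to 77 with a median of 0 in STOP and from 0 to 29 with a median of 3 in D5-DT. Ccl17 ranged from 0 to 13 UMIs at D5 (median 0), 0 to 15 at D19 (median 1), 0 to 113 in STOP (median 0) and 0 to 125 in D5-DT (median 0). Ccl22 ranged from 0 to 17 UMIs at D5 (median 0), 0 to 10 at D19 (median 1.5), 0 to 59 in STOP (median 2) and 0 to 327 in D5-DT (median 2.5). The cell ranges of the arms overlapped for all 3 genes. The highest cells lay in STOP for Il12b and in D5-DT for Ccl17 and Ccl22.

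Shares at equal depth were taken next. After thinning T-poor members to 2000 UMIs, Il12b was detected in 36.0% at D5 (26% to 47.1%), 10.8% at D19 (3.03% to 25.4%), 36.6% in STOP (28.7% to 45.1%) and 43.3% in D5-DT (25.5% to 62.6%). Without thinning, the shares were 53.4%, 15.8%, 47.6% and 63.3%. Thinned Ccl17 shares were 5.81% at D5 (1.91% to 13%), 54.1% at D19 (36.9% to 70.5%), 10.6% in STOP (6.03% to 16.8%) and 16.7% in D5-DT (5.64% to 34.7%). The interval at D19 lay above those of D5 and STOP. The CPM of Ccl17 was higher in D5-DT than at D19, so no order is read between these 2 arms. Ccl22 shares were 26.7% at D5, 35.1% at D19, 40.8% in STOP and 46.7% in D5-DT, with intervals that all overlapped. In B cells of the same arms and libraries, the thinned share of each of the 3 genes was at most 0.667%. Ccl5 was widespread outside the members. Its thinned share was 93.0% in T-poor members at D5, 86.5% at D19, 90.1% in STOP and 90% in D5-DT (73.5% to 97.9%), against 33.0%, 0 of 23 cells (exact upper limit 14.8%), 8.0% and 64.5% (52.7% to 75.1%) in B cells of the same arms. The intervals of members and B cells overlapped in D5-DT, so the level of Ccl5 in that arm is not read as the members' own. Members under 2000 UMIs were left out here, 1 each at D0, D19 and in STOP and 2 at D5.

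**Figure D3:**
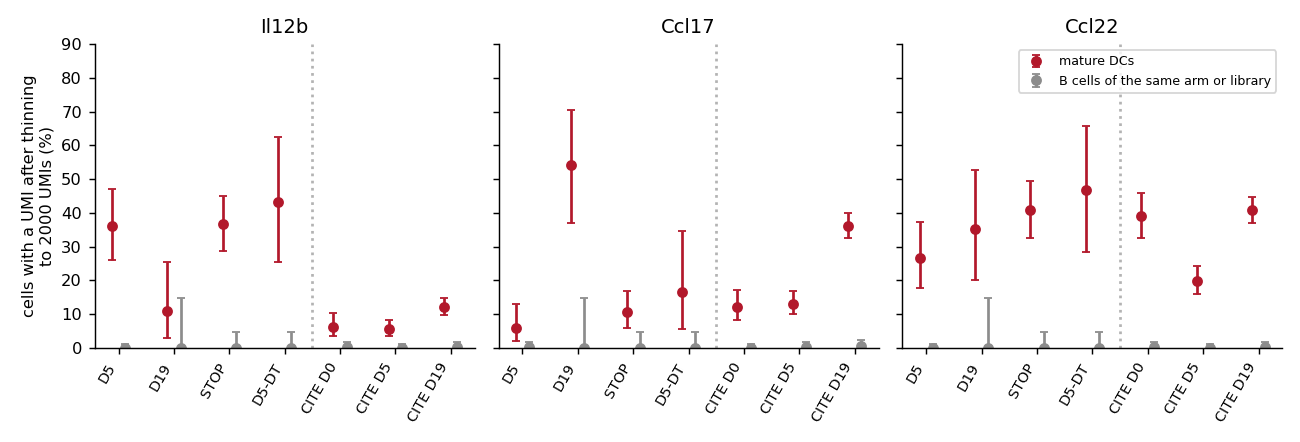
Share of T-poor members (red) and of B cells of the same arm or library (grey) with a UMI of Il12b, Ccl17 or Ccl22 after thinning to 2000 UMIs, in percent with exact 95% intervals; pool arms stand left of the dotted line and CITE-seq libraries right. Il12b was lowest at D19 among the 4 pool arms shown (10.8%), where the Ccl17 share was highest (54.1%).

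The overlap of these genes was counted cell by cell. With at least 2 UMIs counted as present, 121 T-poor members had Il12b, 55 had Ccl17 and 13 had both. The counts were 38, 7 and 0 at D5, 1, 18 and 0 at D19, 63, 23 and 10 in STOP, and 19, 7 and 3 in D5-DT. Within STOP, 10 of 23 Ccl17 members had Il12b, beside 63 of all 143 T-poor members, and in D5-DT 3 of 7 had it, beside 19 of all 30. Of the 55 Ccl17 members, 44 (80.0%) also had Ccl22. Of the 121 Il12b members, 76 (62.8%) had Ccl22 and 91 (75.2%) had Irf8, a transcription factor of the cDC1 lineage that other DCs also express. Over all 302 T-poor members, 153 had Ccl22 and 195 had Irf8. Depth differs between cells, so these counts are a description.

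Recovery and late disease were compared within 1 lane, as 168 STOP members with 1880634 UMIs against 40 D19 members with 320504 UMIs. Of 6125 genes with at least 30 UMIs in at least 5 members, 375 (6.12%) were at least 2-fold higher in STOP and 333 (5.44%) at least 2-fold lower, counted on the log2 ratio of CPM with 10 CPM added. The median log2 ratio of all compared genes was -0.11. Among T-poor members alone, 5032 genes were compared, of which 336 were higher and 233 lower. The D19 side sets the precision, since 10 CPM there stood for few UMIs.

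Several cytokine genes were higher in STOP members. Of 6 cytokine genes compared, 3 were at least 2-fold higher and none lower, with a median of 0.94. Il12b had a log2 ratio of 3.37 (interval of the ratio without added CPM, 2.88 to 4.58). Ebi3, a chain that pairs with Il27 and Il12 subunits, had 65 UMIs in 33 STOP members and 2 in 2 D19 members (log2 ratio 1.46, interval 0.56 to 5.55). Il1b was at 145 against 65.5 CPM (1.03, interval 0.50 to 1.86) and Il15, which sustains T and NK cells, at 120 against 62.4 CPM (0.85). Il12a and Il23a, the partners of Il12b, and also Il27 and Il10 were at no more than 3.12 CPM in any arm.

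Costimulatory and adhesion genes had a median log2 ratio of 0.82 over 9 compared genes, 3 of which were at least 2-fold higher and none lower (2 of 8 in T-poor members). Cd40, the receptor for Cd40l on helper T cells, was at 192 CPM in STOP (361 UMIs in 113 cells) against 53.0 CPM at D19 (17 UMIs in 13 cells), a log2 ratio of 1.68 (1.16 to 2.65). Icam1, a ligand of the integrin LFA-1, was at 279 against 109 CPM (1.28, 0.86 to 1.89), and Pvr, a ligand of Cd226, at 129 against 59.3 CPM (1.0). Icosl, which binds Icos on T cells, was at 273 against 393 CPM (-0.51) and stayed within 2-fold.

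Among 7 chemokines compared, Ccl5 (log2 ratio 1.02) was 2-fold higher and Ccl17 (-1.14, interval -1.47 to -0.89) 2-fold lower in STOP, while Ccl22 (0.76) and Cxcl16 (878 against 855 CPM, 0.04) stayed within 2-fold. The last call, for Ccl4, rested on 58 UMIs in 7 STOP cells against none, of which 1 cell held 70.7%. Without members rich in T UMIs, Ccl5 came to 0.75, and none of 6 chemokines was 2-fold higher. Cxcl2, a neutrophil attractant that was not on the list, had 241 UMIs in 31 of 168 STOP members and none at D19, and was at least 13.7-fold higher against a floor of 3 UMIs over the D19 members.

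The largest differences by the naming rule included stress and DC genes. Hspa1b, an inducible heat shock protein, had 295 UMIs in 73 STOP members and none at D19, at least 16.8-fold higher. It was followed by Cxcl2, by the aspartic protease Asprv1 (257 UMIs in 40 cells against 1 UMI, log2 ratio 3.48, interval 2.96 to 10.8), by Il12b and by the secreted nuclease Dnase1l3 (247 against 15.6 CPM, 3.33). The lowest ratios belonged to the C-type lectin Cd302 (29.8 against 193 CPM, -2.35), the nuclear receptor Rora (16.5 against 122 CPM, -2.31), Cirbp (62.2 against 284 CPM, -2.03), 2310010J17Rik (-1.80) and the carbonic anhydrase Car2 (-1.79). All 10 kept their direction in T-poor members.

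The stress lists moved together with these values. Of 10 heat shock and chaperone genes, 3 were at least 2-fold higher in STOP and none lower (median 0.69), and in T-poor members 6 were higher (median 1.21). Of 10 immediate early genes that tissue dissociation is known to induce, 3 were higher and none lower (median 0.83), with Fos at 372 against 134 CPM (1.41). Both genes of the cold shock list were lower: Cirbp, and Rbm3 at 313 against 939 CPM (-1.55). The other cells of these arms also differed. Their cold shock list was at 384 CPM in STOP against 1103 at D19, and their heat shock and chaperone list at 5226 against 3134 CPM. Their immediate early genes ran the other way, at 6825 against 11587 CPM. The part of sample handling in the difference between STOP and D19 was not tested.

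Genes of the interferon response were higher in STOP. Of 11 measured genes, 7 were compared, 6 were at least 2-fold higher and none was lower (median 1.62, or 1.5 with the gene at 0 UMIs at its bound). Isg15 had 166 UMIs in 64 STOP members and 2 UMIs at D19 (log2 ratio 2.60, interval 1.95 to 6.88). Usp18, a feedback inhibitor of the pathway, was at 68.6 against 15.6 CPM (1.62). Oasl1 had 48 UMIs against none, at least 2.73-fold higher. Rsad2 was within 2-fold (0.24). In the other cells of these arms the list was at 630 CPM in STOP and 362 CPM at D19, against 825 and 293 CPM in members.

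Of 9 cholesterol metabolism genes compared, 5 were at least 2-fold higher and none lower (median 1.03). The synthesis gene Idi1 was at 337 against 156 CPM (1.06), and Sqle (90 against 2 UMIs, 1.83, interval 1.04 to 6.01) and Fdft1 (83 against 3 UMIs, 1.48, interval 0.64 to 4.54) were also higher. Abcg1, a sterol exporter and not a synthesis gene, had 552 against 20 UMIs (2.07, interval 1.59 to 2.96). Hmgcs1 (0.50) and Insig1 (-0.41) stayed within 2-fold.

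Of 10 genes of cDC1, the cross-presenting DC subset, 4 had enough UMIs to be compared, 3 were at least 2-fold higher in STOP and none was lower. Xcr1, the receptor that marks cDC1, had 57 UMIs in 21 STOP members and none at D19, at least 3.24-fold higher. Irf8 was at 538 against 218 CPM (1.26, 0.95 to 1.67) and Batf3 at 220 against 140 CPM (0.61), while Cadm1 (1.44) had 56.2% of its 48 UMIs in 1 cell. Of 16 mature DC genes, of which the gate used Ccr7 and Fscn1, 1 was at least 2-fold higher and 1, Ccl17, lower (median 0.48). The 10 migration and cytoskeleton genes also include Ccr7 and Fscn1, and of them 1 was higher and none lower (median 0.34). The higher ones were Apol7c, at 1684 against 521 CPM (1.67), and Marcksl1, an actin regulator, at 901 against 359 CPM (1.30).

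Other lists gave few calls or calls in both directions. None of 10 MHC class II genes (median 0.15) and none of 13 NF-κB genes (median 0.49) was 2-fold different in either direction over all members. In T-poor members, 2 of the class II genes (median 0.16) and 1 of the NF-κB genes (median 0.48) were 2-fold higher. Of 10 inhibitory genes, Aldh1a2, the enzyme that makes retinoic acid, was higher (87.7 against 28.1 CPM, 1.36) and Cd200, the ligand of an inhibitory receptor, lower (119 against 318 CPM, -1.35), and in T-poor members 2 of 9 were higher and 1 lower. Il4i1 (0.73) was within 2-fold. Of 7 survival genes, 2 were higher and none lower (1 of 6 in T-poor members). Bcl2, a survival gene that T cells also express, was at 52.6 against 3.12 CPM in all members (2.26) and at 0.19 in T-poor members. The median over 4 cell cycle genes was -2.07 with the cycling cell of D19 and 1.34 over 2 genes in T-poor members.

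**Figure D4:**
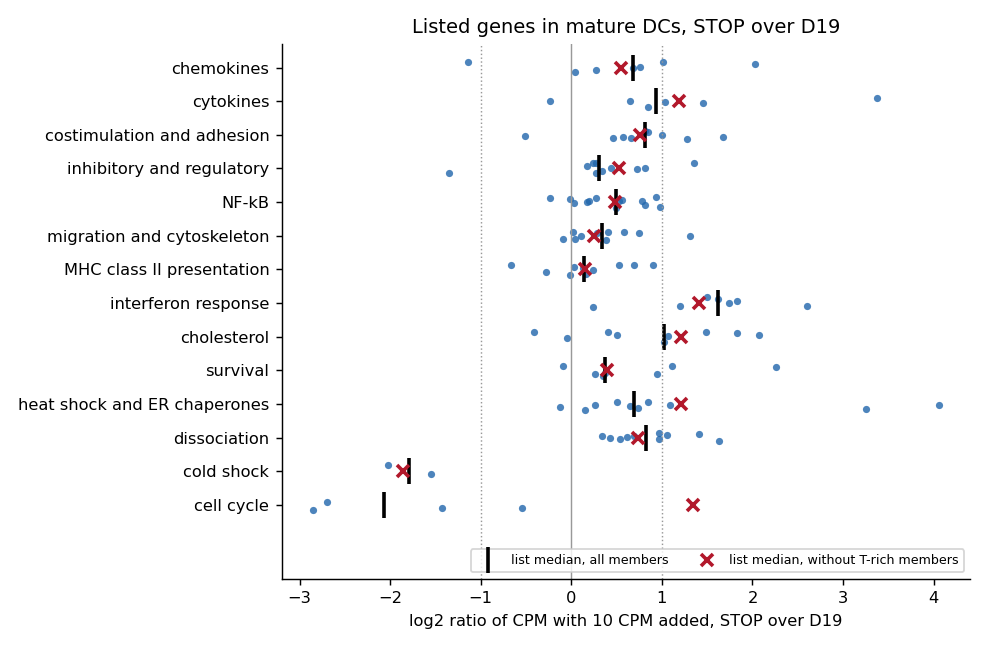
Each point is a listed gene, placed by its log2 ratio of STOP over D19 members (CPM with 10 CPM added); black bars give list medians over all members, red crosses the medians without members rich in T UMIs, and dotted lines 2-fold. Interferon response genes (median 1.62) and cold shock genes (-1.79) lie farthest from 0 among the lists drawn, apart from the cell cycle list, whose median changes sign. The migration and cytoskeleton list includes Ccr7 and Fscn1, which chose the members.

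Depletion of Mgl2+ DCs was compared as 32 D5-DT members against 105 D5 members, from different lanes. Mgl2 itself could not check the depletion here, with 0 UMIs in the members of both arms. Of 5343 genes, 60 (1.12%) were at least 2-fold higher in D5-DT and 150 (2.81%) at least 2-fold lower, with a median log2 ratio of -0.10. Among T-poor members fewer genes were compared, and the counts were 42 and 91 of 3633. The D5 arm also enters the comparison with CITE-seq below, so the 2 comparisons share samples.

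Ccl17 and Ccl22, the ligands of Ccr4, were higher in D5-DT as summed levels, which a few cells carried. Ccl17 was at 665 against 38.6 CPM (log2 ratio 3.79, interval 3.65 to 4.59), seen in 10 of 32 and 14 of 105 members. Ccl22 was at 1156 against 122 CPM (3.15), seen in 24 of 32 and 42 of 105 members. A T-poor D5-DT member with 38225 UMIs held 63.5% of the Ccl22, 26% of the Ccl17 and 85.7% of the Aldh1a2 UMIs of the arm. Without it, Ccl22 was at 462 CPM (1.84, interval 1.60 to 2.25), Ccl17 at 538 CPM (3.49) and Aldh1a2 at 66.3 CPM (1.34, interval 0.87 to 2.57) against 20.2 CPM at D5. Another cell held 42.2% of the Ccl17 UMIs, and without it Ccl17 was at 391 CPM (3.04). Without both cells, Ccl17 was at 236 CPM (2.34, interval 2.09 to 3.15) and Ccl22 at 331 CPM (1.37, interval 1.09 to 1.79). The thinned shares of T-poor members given above had overlapping intervals between D5 and D5-DT for both genes. Cxcl10 was called at 2.43, but 1 of 2 positive cells held 98.3% of its UMIs. Ccl5 (-0.17), Cxcl16 (-0.06) and Il12b (0.92) stayed within 2-fold.

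Macrophage genes were among the largest ratios. Apoe had 88 UMIs in 15 D5-DT members against 9 UMIs at D5 (3.56, interval 3.72 to 5.88 without added CPM), the complement gene C1qa 34 UMIs in 8 members against 2 UMIs (2.89, interval 3.54 to 8.61) and the lysozyme gene Lyz2 73 UMIs in 10 members against 24 UMIs (2.53). Of 9 monocyte and macrophage markers, 6 had UMIs in the D5-DT members, at 353 CPM in sum, against 48.7 CPM in the D5 members and 2241 CPM in the other cells of D5-DT. The free RNA held 3084 CPM of these markers in the D5-DT lane and 925 CPM in the D5 lane. 1 cell held 50% of the C1qa UMIs, and without it C1qa came to 2.06 and Apoe to 2.97. Their part in the comparison was not tested. The fifth gene, Gm42418, which overlaps ribosomal RNA sequence, was at 25138 against 5226 CPM (2.26).

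Some stress genes were lower in D5-DT. The heat shock gene Hsph1 had 3 UMIs against 69 (-2.02, interval -5.42 to -1.5), and 4 of 10 heat shock and chaperone genes were 2-fold lower (median -0.71), but only 2 of 9 in T-poor members (median -0.76). The 6 cycling cells of D5 held 15248 CPM of this list, against 4636 CPM in the T-poor members of that arm. Of 9 immediate early genes of the dissociation list, 2 were 2-fold lower (2 of 8 in T-poor members). Jun was at 110 against 320 CPM (-1.46) and Atf3 at 35.9 against 101 CPM (-1.27). Il1b had no UMI in D5-DT and 47 in 5 D5 members, at least 5.86-fold lower. Klf2 was at 76.3 against 314 CPM (-1.91) and Gem at 1 against 42 UMIs (-1.89, interval -9.31 to -1.42). Ms4a4b, a gene of T cells, was at -2.47 in all members and at -0.42 in T-poor members.

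No gene of several lists passed 2-fold between D5-DT and D5 in either direction when all members were taken. These were 10 MHC class II genes (median 0.19), 13 NF-κB genes (0.13), 7 costimulation and adhesion genes (-0.04), 7 interferon response genes (0.23) and 8 cholesterol genes (-0.51). In T-poor members, 1 of 12 NF-κB genes, 1 of 7 costimulation and adhesion genes and 2 of 7 cholesterol genes (median -0.88) were 2-fold lower, and none of the class II and interferon response genes compared. Birc2, an NF-κB regulator of the mature DC list, was at 177 against 363 CPM (-0.99, and -1.14 in T-poor members).

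Members of the sorted pools were last set beside cells that passed the same gate in CITE-seq libraries labelled D5 and D19, the first of which carries D6 in its description. At D5, 105 pool members were compared with 442 CITE-seq cells. Of 8497 genes, 473 (5.57%) were at least 2-fold higher in the pool and 256 (3.01%) lower, with a median of 0.06. The largest ratios were those of proliferation genes (Pclaf 3.43, Rrm2 3.14, Hist1h1b 3.08 and Birc5 3.01) and of Trdc (3.26). The 4 proliferation genes lay below 0 without the members rich in T UMIs (-1.32, -0.40, -1.02 and -0.15), and Trdc came to 2.12. In T-poor members the counts were 116 higher and 284 lower of 7458 genes compared.

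MHC class II transcripts were lower in D5 pool members. Of 10 genes, 9 were at least 2-fold lower in all members (median -1.21) and 6 in T-poor members (median -1.27). The antigen-binding chains were at 2530 against 5299 CPM for H2-Aa (-1.06, and -0.66 in T-poor members) and 917 against 2822 CPM for H2-Ab1 (-1.61 and -1.38), and the invariant chain Cd74 at 5010 against 10519 CPM (-1.07 and -0.70). The peptide loading genes H2-Oa and H2-DMa were at 14.3 against 143 CPM (-2.66 and -2.95) and 77.3 against 210 CPM (-1.33 and -2.15). Ciita, the class II transactivator, was at 26.9 against 68.4 CPM (-1.09 and -1.95). In T-poor members H2-Oa, H2-DMa and Ciita differed more than H2-Aa, H2-Ab1 and Cd74. Ctss, the protease that trims the invariant chain, stayed within 2-fold (-0.45). The free RNA of the lanes moved the same way, with 2108 CPM of these genes in the D5 pool lane and 14843 CPM in the CITE-seq library, and its part in the difference was not tested. Of 10 immediate early genes of the dissociation list, 6 were 2-fold lower in all D5 pool members and 4 in T-poor members (medians -1.22 and -0.96), and none was higher. Of 10 heat shock and chaperone genes, 5 were 2-fold higher in all members (median 1.03) and none in T-poor members. The part of sample handling was not tested.

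Of 5 plasmacytoid DC genes, 3 were at least 2-fold lower in all D5 pool members and 4 in T-poor members, and none was higher. Siglech had no UMI in pool members and 362 UMIs in 20 of 442 CITE-seq cells, at least 35.0-fold lower, and Ly6d (-3.26) had 4 against 483 UMIs. Ifitm1 and Dkk2 had no UMI in the pool either, at least 36.9-fold and at least 22.0-fold lower, and Rnase6 was at -2.97. Il12b ran opposite, at 211 against 48.7 CPM (1.91, and 2.33 in T-poor members), while Ccl17 (38.6 against 133 CPM, -1.55) was lower and Ccl22 was just within 2-fold (122 against 253 CPM, -1.0 after rounding). Thinned shares of T-poor cells with Il12b were 36.0% in the pool and 5.54% in CITE-seq (3.51% to 8.27%). Of 7 genes of type 2 conventional DCs compared, 4 were 2-fold lower in the pool (3 in T-poor members) and none was higher. Of 8 pan-DC genes, which include class II genes, 5 were lower and none higher (2 lower and 1 higher in T-poor members). Of 5 cDC1 genes, 1 was lower and none higher (1 each way in T-poor members).

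At D19 the MHC class II difference was not seen, with 5100 CPM of these genes in the free RNA of the pool lane and 9557 CPM in that of CITE-seq. Of 8118 genes, 520 (6.41%) were at least 2-fold higher in the 40 pool members than in 798 CITE-seq cells and 238 (2.93%) lower, and all genes had a median of 0.21. With scaling by the median gene ratio, 202 were higher and 364 lower, so which side held more genes depended on the scaling. H2-Aa was at 2665 against 2776 CPM (-0.06, interval -0.16 to 0.04) and Cd74 at 4767 against 4811 CPM (-0.01, interval -0.09 to 0.06). Of the 10 class II genes, H2-Oa alone was past 2-fold (15.6 against 62.7 CPM, -1.51). Of the 10 dissociation genes, 5 were 2-fold lower and none higher at D19 (median -1.02). Whether the D5 and D19 differences themselves differ was not tested, for want of replicates. The D19 members also enter the comparison with STOP.

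Ccl5 was at 3002 against 9626 CPM at D19 (-1.68) and Il12b at 40.6 against 116 CPM (-1.31), while Ccl17 (0.22) and Ccl22 (-0.48) stayed within 2-fold. The largest rises were Gm42418 (44742 against 1422 CPM, 4.97), Lars2 (1404 against 46.2 CPM, 4.65), AY036118 (2.69), Mpv17l (1.92) and Zfp991 (1.86), and Gm42418 and AY036118 overlap ribosomal RNA sequence. Gm42418 was as high in STOP members of the same lane (45567 CPM). The largest falls were genes at no UMI in the pool, the haemoglobin gene Hba-a1 (at least 62.2-fold), Cxcl2 (at least 9.82-fold), Ccl4 (at least 7.44-fold) and Xcl1 (at least 5.47-fold), and Ms4a4b (-2.77). In CITE-seq, 1 cell held 49.9% of the Hba-a1 UMIs, and the richest cells held 30.7% for Ccl4, 33.2% for Xcl1 and 7.31% for Cxcl2.

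**Figure D5:**
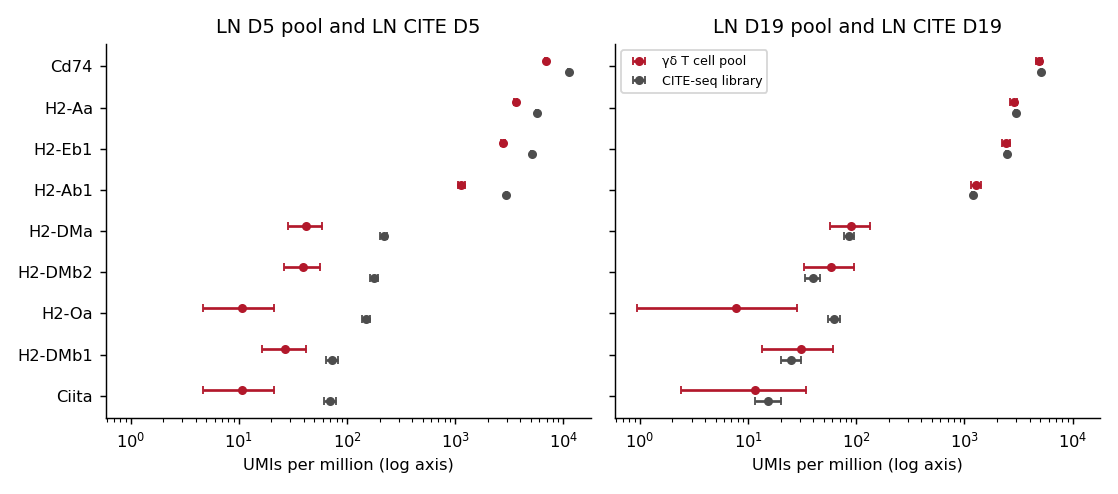
MHC class II presentation genes in T-poor members of the γδ T cell pools (red) and in cells of the same gate in CITE-seq (grey), as CPM on a log axis with exact 95% intervals, at D5 (left) and D19 (right). At D5 the pool values lie left of the CITE-seq values, and at D19 H2-Aa and Cd74 lie close together.

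Markers of other cell types were low in members but not absent everywhere. The B cell list without Cd79a reached at most 85.4 CPM in the members of any arm. Neutrophil markers had no UMI at D0 and D5 and at most 9.36 CPM in the other arms. The monocyte and macrophage list was at 48.7 CPM at D5, 78.0 at D19, 446 in STOP and 353 in D5-DT, against 700 to 2241 CPM in the other cells of those arms. At least 20 of its UMIs were held by 4 STOP members (up to 513 UMIs in a cell), which also held 123 to 468 mature DC UMIs, and by 3 D5-DT members, with 18 to 153. The NK cell list was at 866 CPM in the 4 D0 members, all of it in the cycling cell, against 353 CPM in the other cells. In the other arms it was lower in members than in other cells. The pDC list was near its level in the other cells, at 500 (308 without the cycling cell) against 323 CPM at D0, 198 against 270 at D5, 215 against 202 at D19, 270 against 227 in STOP and 189 against 311 in D5-DT. Stroma and endothelium markers were at 178 CPM in STOP and at most 6.74 CPM elsewhere. In STOP, 1 T-poor member with 2 UMIs each of Ccr7 and Fscn1 had 147 Col1a1 and 149 Col1a2 UMIs and only 1 mature DC UMI, so its data also went against the label. The part of these cells in the comparisons was not tested.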

How the data were processed

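The authors deposited unfiltered UMI counts per gene and antibody tag. The header of the counts names Cell Ranger 4, whereas the study's software list names another version. The genome build was mm10 according to the submitters' processing notes. Barcodes with at least 1000 RNA UMIs, 500 genes and at most 10% mitochondrial UMIs were kept, and an arm was assigned where the top hashtag had at least 10 UMIs and 3 times the next. No doublets were removed, and Scrublet (scanpy 1.11.5) served only as an alternative. UMIs were summed over members of an arm and scaled to CPM. Genes with at least 30 UMIs in at least 5 cells over both sides were compared, with 10 CPM added. Intervals were exact Clopper-Pearson, Poisson or conditional intervals (scipy 1.17.1), and Newcombe's for differences of shares. Named genes were the listed genes discussed, the 5 largest rises and falls per comparison among genes of which no cell held over 50% of the UMIs, without mitochondrial, Xist and Y-linked genes, and the 10 genes highest in members. The members, gene lists and comparisons were chosen with earlier results of these data known. Scripts used Python 3.11.15 and were tested on simulated data. Some list members are counted but not reported by name here.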

Additional observations from a re-analysis of the deposited data

How the results depend on the processing

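The 3 differences of shares kept their direction and moved by less than their intervals under every alternative run (gates of 1 or 3 UMIs, 1500 UMIs per cell, 5% mitochondrial UMIs, Scrublet, a 10-fold hashtag ratio, no Cd79a condition). The share of members with Cd3e was 20.3% without thinning and 1.66% without members rich in T UMIs. The share with Trdc was 26.4% without thinning, 14.3% with gates of 1 UMI, 4.73% with a 10-fold hashtag ratio and 2.98% without members rich in T UMIs. Counts of genes past 2-fold depended on the CPM added. With 1 CPM and 50 CPM they were 1252 and 117 for STOP against D19 (708 with 10 CPM), 490 and 33 for D5-DT against D5 (210), 1525 and 152 for D5 against CITE-seq (729), and 1911 and 94 for D19 against CITE-seq (758). Scaled by the median gene ratio, D19 against CITE-seq had 202 genes higher and 364 lower, against 520 and 238 before. In each other comparison the side with more genes stayed the same. For D5-DT against D5 the count was 348 of 8301 genes compared when genes of 10 or more UMIs were taken, beside 210 of 5343. Alternatives chosen after seeing the data left out the 47 members rich in T UMIs, the 9 cycling cells, or 1 or 2 D5-DT members rich in mature DC, Ccl17 or C1qa transcripts, which left 199 to 217 genes. Without members rich in T UMIs fewer genes were compared. The count was then 133 of 3633 for D5-DT against D5 and 400 of 7458 for D5 against CITE-seq. The latter came to 347 of 8093 without cycling cells and to 354 of 8497 with means per cell. In the last comparison the ratios reversed for Pclaf (-1.50 without cells with any T UMI, -1.32 without members rich in T UMIs, -0.84 without cycling cells), Rrm2 (-0.48, -0.40 and -0.26), Hist1h1b (-1.48, -1.02 and -0.63) and, in the first 2 settings, Birc5 (-0.052 and -0.15). The UMIs of these genes are not given cell by cell here. Of the genes past 2-fold, 376 of 708 for STOP against D19, 69 of 210 for D5-DT against D5, 222 of 729 for D5 against CITE-seq and 417 of 758 for D19 against CITE-seq were also past it in T-poor members.

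The gene comparisons of D5 with D0 and of D0 with CITE-seq were not run, since D0 had 4 members and the rule asks for 10. For D5-DT against D5, leaving out cells with any T UMI was not run, since 2 members were left. No paired analysis was possible because each arm was 1 library part with no replicate. Depth limits the D19 side, with 320504 member UMIs, most.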

Other observations

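Among cells of the 3 pools with no hashtag assigned, 24 passed the RNA gate for mature DCs: 8 of 456 in the D0 and D5 pool, 9 of 76 in the D19 and STOP pool and 7 of 240 in the D5-DT pool. They entered no comparison.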
